A study of Mus musculus with 2 samples.

Results

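In small RNA libraries from forebrains of B6NCrl mice at postnatal day 0, 7 microRNA hairpins that lie inside protein-coding host genes were described: Mir149, Mir708, Mir139, Mir153, Mir488, Mir383 and Mir326. They were chosen by symbol, as hairpins in genes active in neurons, and all 7 were found among the 1973 microRNA genes of the deposited tables. The samples form 1 group of 2 pups, pup 3 and pup 1, each a single forebrain. The labels list the same donor record for both pups and give their sex as not collected, and no treatment or altered gene is named. There is no comparison between conditions, so levels are given per pup and ratios, always pup 3 over pup 1, compare the libraries of 2 pups.

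An intronic microRNA is cut from the transcript of its host gene by Drosha, exported and cut again by Dicer into a short duplex, of which 1 strand is loaded into an Argonaute protein. The loaded strand finds its targets mainly through its seed, bases 2 to 8, and represses them. Because such a hairpin is copied with its host, microRNAs in neuronal genes can be made in the cells that transcribe those genes, although some have promoters of their own. The RNA of the host genes was not measured here, since the libraries hold RNA of under 30 nucleotides.

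The mature strands of 6 of the 7 hairpins are printed because their seeds set which other microRNAs they can be grouped with and because their copies elsewhere bear on the counts. They come from RefSeq on GRCm38.p6, 5′ to 3′, with the seed in capitals. Mir383 is named only.
miR-149-5p: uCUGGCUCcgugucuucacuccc
miR-149-3p: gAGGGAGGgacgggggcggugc
miR-708-5p: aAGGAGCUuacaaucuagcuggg
miR-708-3p: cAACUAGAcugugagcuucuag
miR-139-5p: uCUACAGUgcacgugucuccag
miR-139-3p: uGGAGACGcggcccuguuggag
miR-153-5p: gUCAUUUUugugacguugcagcu
miR-153-3p: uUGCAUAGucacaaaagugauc
miR-488-5p: cCCAGAUAauagcacucucaa
miR-488-3p: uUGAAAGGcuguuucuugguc
miR-326-5p: gGGGGCAGggccuuugugaaggcg
miR-326-3p: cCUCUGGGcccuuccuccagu
The 12 strands carried 12 different seeds, so none of these 6 hairpins shares a seed with another of them. A U stood first in 5 of the 12 strands. The GC content ranged from 36.4% in miR-153-3p to 81.8% in miR-149-3p.

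Each count in the tables belongs to a whole hairpin and pools its arms. The hairpins with the highest and the lowest level show what 1 count covers, with both mature strands in capitals.
Mir149: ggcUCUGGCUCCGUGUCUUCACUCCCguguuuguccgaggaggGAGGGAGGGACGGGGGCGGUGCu
Mir326: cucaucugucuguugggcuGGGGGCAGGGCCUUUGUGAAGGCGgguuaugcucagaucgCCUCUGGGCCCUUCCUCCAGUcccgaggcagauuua
Reads of miR-149-5p and miR-149-3p therefore add to 1 value, and no arm of any hairpin can be compared with the other.

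All 7 hairpins lay in an intron of the named host, on the strand of the host, by GENCODE M21 on GRCm38, the assembly that the files call mm10. Mir149 (ENSMUSG00000065470.1, chr1:92850378-92850443, plus strand) lies in intron 1 of Gpc1, which encodes glypican-1, a heparan sulfate proteoglycan of the cell surface. Mir708 (ENSMUSG00000076143.1, chr7:96249424-96249532, plus) lies in intron 1 of Tenm4, a teneurin, a transmembrane protein of axon and myelin development. Mir139 (ENSMUSG00000065446.1, chr7:101475376-101475443, plus) lies in intron 2 of Pde2a, a phosphodiesterase that breaks down cyclic nucleotides. Mir153 (ENSMUSG00000065538.1, chr12:117250817-117250885, plus) lies in intron 19 of Ptprn2, a phosphatase-like protein of dense-core vesicles.

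Mir488 (ENSMUSG00000070103.2, chr1:158505625-158505733, plus) lies in intron 5 of Astn1, which encodes astrotactin, a protein of neuron migration along glia. It starts 0.155 kb after the exon before it, the shortest such distance of the 7. Mir383 (ENSMUSG00000065457.2 in the tables, and ENSMUSG00000065457.3 in the annotation, chr8:38252133-38252202, minus) lies in intron 1 of Sgcz, a sarcoglycan. That intron spans 708 kb, the longest of the 7 host introns. Mir326 (ENSMUSG00000065571.1, chr7:99552269-99552363, plus) lies in intron 1 of Arrb1, which encodes beta-arrestin 1, an adaptor that turns off G protein-coupled receptors. Further annotated genes run opposite to members, Gm5441 across Mir153 and Gm37679 across Mir488, and neither hairpin had a read on that strand. A further gene annotated as protein-coding, Gm45837, overlaps Mir139 on the plus strand, the strand of Pde2a. Which of these transcripts carries Mir139 was not tested.

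**Figure D1:**
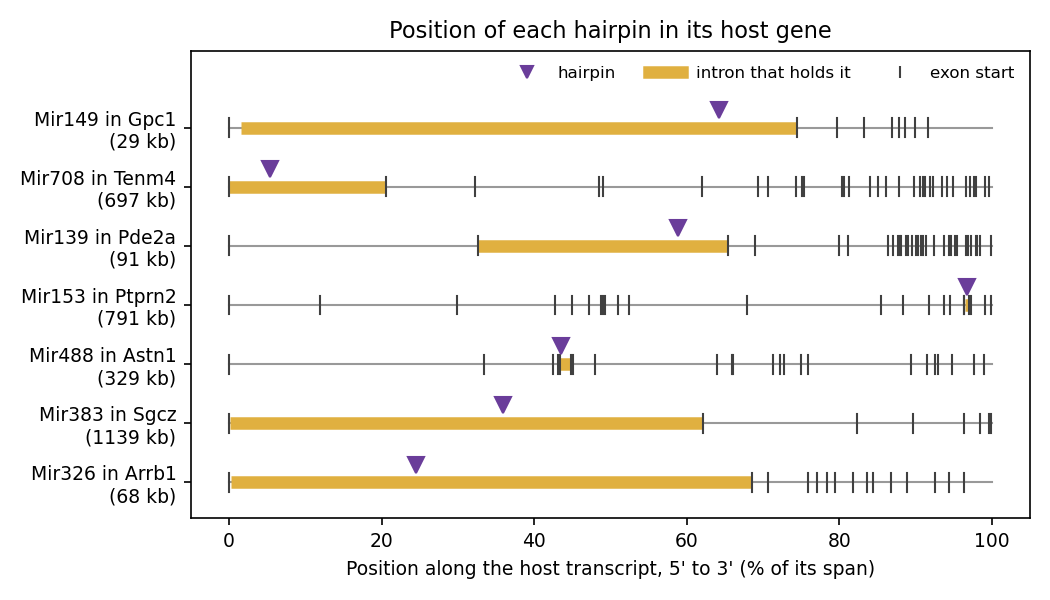
Position of each hairpin (triangle) along its host transcript, 5′ to 3′, as a percent of the span given in kb beside each name; ticks mark exon starts and the thick bar the intron that holds the hairpin. Mir149, Mir708, Mir383 and Mir326 lie in the first intron, and Mir153 lies near the 3′ end of Ptprn2.

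The members stand alone in the genome rather than in clusters. The nearest annotated hairpin is 56.1 kb away for Mir708, 386 kb for Mir149, 406 kb for Mir139 and farther for the other 4. Mir708, Mir326 and Mir139 lie on the same chromosome in that order, 3.30 Mb and 1.92 Mb apart.

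The data went against the name single-copy for 1 of the 7 hairpins. Over 1894 annotated hairpins, 6 members shared no stretch of 20 nucleotides with a hairpin elsewhere, while Mir708 shared 23 nucleotides with Gm23134. This hairpin (ENSMUSG00000077990.1, chr2:157562361-157562447, minus strand) lies in an intron of Blcap. The window that lines up with miR-708-5p is printed to show how much of it is common, with the differing base in capitals.
miR-708-5p: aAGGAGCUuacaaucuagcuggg
Gm23134 window, chr2:157562405-157562427, minus strand: Caggagcuuacaaucuagcuggg
Bases 2 to 23 were the same, and the only difference was A1C, counted from 1 at the 5′ end of miR-708-5p. Each of the 12 mature strands, taken whole, occurred in 1 of the annotated hairpins, and 1 strand, miR-708-5p, occurred in a second hairpin once its first base was dropped. The search covered annotated hairpins and not the genome. The tables set reads that map to several places apart from the genes, as 43.5% of the library of pup 3 and 43.0% of that of pup 1. How many of these came from miR-708-5p was not tested, so the count of Mir708 is uncertain.

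The libraries held 18798326 reads in pup 3 and 22470992 reads in pup 1, of which 7678662 and 9037087 were assigned to microRNA genes. Levels are in CPM, counts per 1000000 assigned reads. A gene was called detected when each pup had at least 10 counts of it, as was the case for 433 genes. All 7 members passed, the lowest being Mir326 with 654 counts in pup 3 and 1395 in pup 1. Counting intervals cover counting error only, since each pup gave 1 library. No molecular identifiers are named, so copies made in amplification may count as separate reads and the intervals may be too narrow.

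The 7 hairpins took 3.15% of assigned reads in pup 3 (95% Wilson interval 3.14 to 3.16) and 3.18% in pup 1 (3.17 to 3.19), a mean of 3.16% ± 0.0190 (SD, n = 2). The 4 most abundant supplied 98.3% of these reads in pup 3 and 97.4% in pup 1. Mir149 alone supplied 42.2% in pup 3 and 46.5% in pup 1. In whole tissue, fewer cells of a type and less RNA per cell cannot be told apart.

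Mir149 had 13280 CPM in pup 3 and 14774 CPM in pup 1, a mean of 14027 ± 1057 CPM (SD, n = 2). It ranked 13 of 1973 genes in pup 3 and 11 in pup 1, and it was among the most abundant hairpins of both forebrains. Mir708 had 8593 CPM in pup 3 and 6889 CPM in pup 1 (mean 7741 ± 1205), at ranks 24 and 29. It is known from the mouse retina, where miR-708 can repress rhodopsin.

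Mir139 had 5735 CPM in pup 3 and 5392 CPM in pup 1 (mean 5563 ± 242), at ranks 34 and 41. Mir153 had 3353 CPM in pup 3 and 3901 CPM in pup 1 (mean 3627 ± 388), at ranks 58 and 50. Its pups overlapped with those of no other member in level.

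A wide gap in level followed. Mir153 stood 11.8-fold above the next hairpin, Mir488, in pup 3 and 11.7-fold above it in pup 1. Mir488 had 284 CPM in pup 3 and 333 CPM in pup 1 (mean 308.9 ± 34.6), at ranks 157 and 161. Mir383 had 176 CPM in pup 3 and 331 CPM in pup 1 (mean 254 ± 109), at ranks 184 and 162. Mir326, whose product is known in human medulloblastoma to repress the Hedgehog receptor component Smo, had 85.2 CPM in pup 3 and 154 CPM in pup 1 (mean 119.8 ± 48.9), at ranks 219 and 201. Mir383 and Mir326 were lower in pup 3 and had the widest spread for their level.

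**Figure D2:**
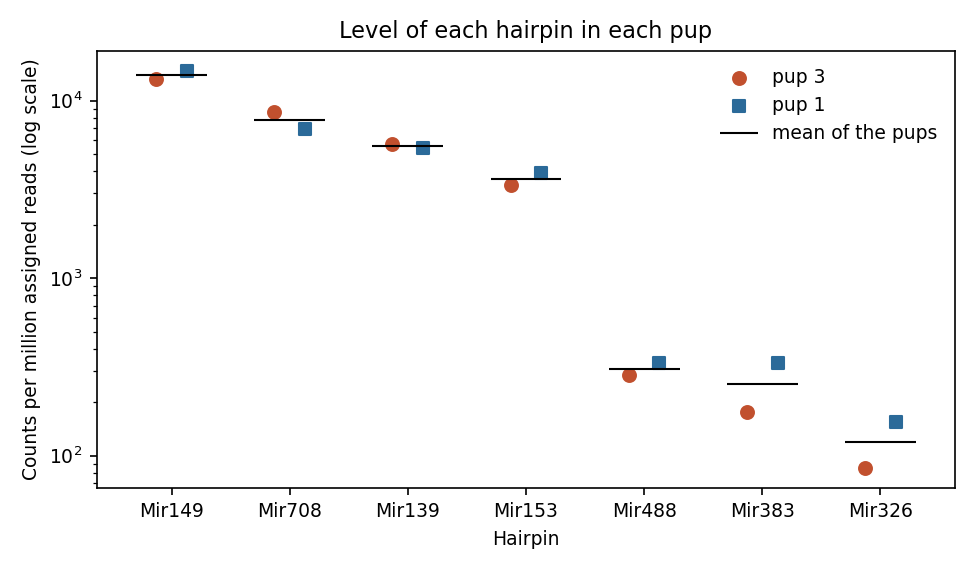
CPM (log scale) of each hairpin in pup 3 (circles) and pup 1 (squares), with a bar at the mean of the pups. Mir149, Mir708, Mir139 and Mir153 lie between 3353 and 14774 CPM, and Mir488, Mir383 and Mir326 between 85.2 and 333 CPM.

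The order of the levels was the same in both pups. For 5 of the 6 neighbouring pairs the lower pup of the higher hairpin stood above the higher pup of the lower hairpin, so the ranges did not overlap. Mir488 and Mir383 did overlap: they differed 1.61-fold in pup 3 and 1.01-fold in pup 1, and are not separated beyond the spread between pups. Mir149 was 156-fold above Mir326 in pup 3 and 95.7-fold above it in pup 1. These folds compare read counts. How evenly the libraries captured different hairpins was not tested, and the same order in both pups does not test it.

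These levels are per hairpin, as a read is about the length of a mature strand. Divided by hairpin length, which runs from 66 nucleotides in Mir149 to 109 in Mir708 and Mir488, 4 of the 6 pairs kept their order in both pups. Mir139 then stood above Mir708, with 8433 against 7884 CPM per 100 nucleotides in pup 3 and 7929 against 6320 in pup 1. Mir383 stood above Mir488 in pup 1 only, with 473 against 306 CPM per 100 nucleotides.

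Set among the 433 detected genes, whose median of mean CPM was 97.3, all 7 members lay above the median, and the median of their mean levels was 3627 CPM. Of the detected hairpins, 170 lay in an intron of a coding gene on its strand. Among these, Mir149 ranked 4, Mir708 ranked 9, Mir139 ranked 14 and Mir153 ranked 23. Mir488 ranked 57, Mir383 ranked 64 and Mir326 ranked 75. The other 163 had a median of mean CPM of 41.4. The members were chosen with earlier results of these data known, so these places are a description.

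**Figure D3:**
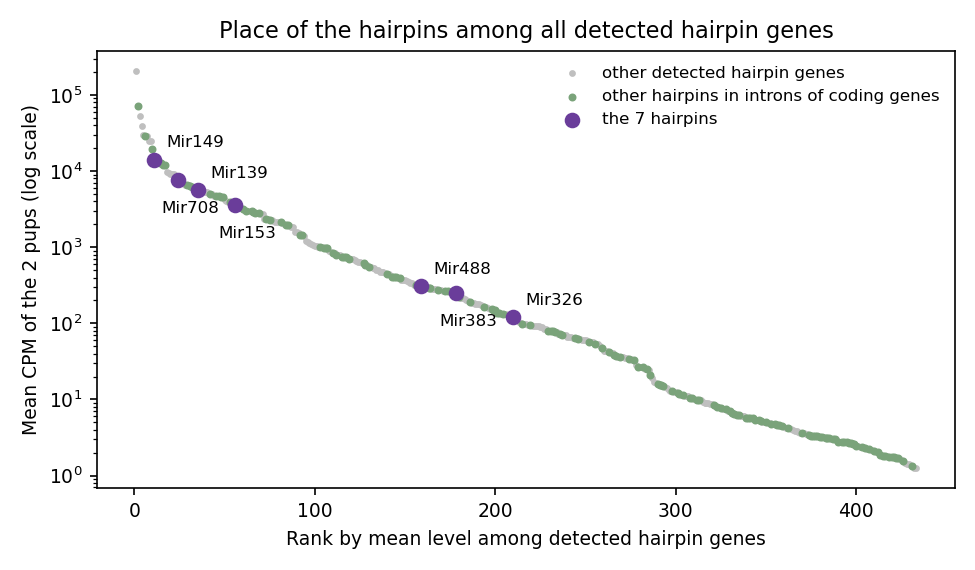
Mean CPM of the 2 pups (log scale) against rank for the 433 detected hairpin genes, with hairpins in introns of coding genes in green and the 7 hairpins in purple. Mir149 at rank 11 is the highest and Mir326 at rank 210 the lowest of the 7.

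For each member, the other hairpin closest to it in level over both pups was found by distance in log2(CPM + 0.5). For Mir149 it was Mirlet7b, with 12601 CPM in pup 3 and 15032 CPM in pup 1. For Mir708 it was Mir30d, with 8898 and 6261 CPM in the same order. For Mir139 it was Mir143 (5002 CPM in pup 3 and 5632 CPM in pup 1) and for Mir153 it was Mir484 (3252 and 3816 CPM). Mir543 was closest to Mir488 (257 and 341 CPM), Mir540 to Mir383 (176 and 349 CPM) and Mir873a to Mir326 (82.3 and 160 CPM). Likeness here rests on 2 libraries.

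Between the pups, Mir383 and Mir326 were the members that differed most, both lower in pup 3, and Mir708 was the one that was most clearly higher. Ratios were scaled by TMM, a factor that sets most genes level. Mir383 held 1354 counts in pup 3 and 2990 in pup 1, a fold of 0.612. Its log2 ratio was -0.71 (95% exact binomial interval -0.80 to -0.61), larger in size than that of 75.8% of the 310 genes that averaged at least 10 CPM. Mir326 held 654 counts in pup 3 and 1395 in pup 1, a fold of 0.634. Its log2 ratio was -0.66 (-0.79 to -0.52), larger in size than that of 71.3% of genes.

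Mir708 held 65983 counts in pup 3 and 62256 in pup 1, a fold of 1.43 after TMM scaling. Its log2 ratio was 0.52 (0.50 to 0.53), larger in size than that of 63.5% of genes. Gm23134 held 117 reads in pup 3 and 67 in pup 1, too few to move this ratio, which stayed 0.52 with them added. Reads that map to several places were not part of that sum, so it does not test the effect of the shared sequence. Mir139 held 44034 counts in pup 3 and 48727 in pup 1, with a log2 ratio of 0.29 (0.27 to 0.31). The remaining members differed little. Mir149 held 101971 counts in pup 3 and 133515 in pup 1, with a log2 ratio of 0.05 (0.03 to 0.06) that turned to -0.15 when libraries were scaled by total counts.

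Mir153 held 25743 counts in pup 3 and 35258 in pup 1, and its log2 ratio of -0.02 (-0.04 to 0.00) did not pass (exact binomial test, adjusted p = 0.160). Mir488 held 2184 and 3012 counts in the same order, and its log2 ratio of -0.03 (-0.11 to 0.05) did not pass (exact binomial test, adjusted p = 0.567). The threshold was 0.05 after Benjamini-Hochberg adjustment over all 460 genes with 20 or more counts in total. Scaled by total counts, which shifted the median of the 310 log2 ratios by -0.20, both passed as lower, at -0.22 and -0.23.

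The two-sided exact binomial test called 5 of the 7 members, 3 higher in pup 3 (Mir149, Mir708, Mir139) and 2 lower (Mir383, Mir326). It called 63.0% of all 460 genes, 30.2% higher and 32.8% lower, so the members' count is near that of the table. Scaled by total counts, 2 members were higher and 5 lower. The test knows counting error only, and with 1 library per pup it compares these libraries. The biological coefficient of variation between the pups was 0.304 over 301 genes. Of the 7 members, 3 had an absolute log2 ratio above 0.36, the median over the 310 genes. The median log2 ratio of the members was -0.02, beside -0.03 over the 310 genes.

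**Figure D4:**
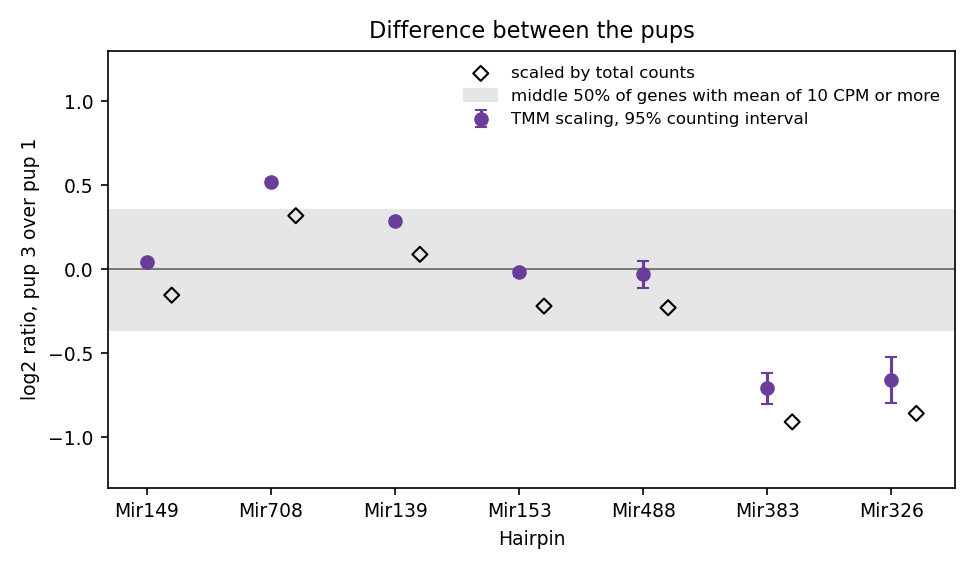
Log2 ratio of pup 3 over pup 1 for each hairpin under TMM scaling (circles, with 95% counting intervals) and scaled by total counts (diamonds); the band holds the middle 50% of genes averaging at least 10 CPM. Mir708 lies above the band at 0.52, and Mir383 and Mir326 lie below it at -0.71 and -0.66.

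The 3 hairpins of chromosome 7 did not move together. Mir326 lies between Mir708 and Mir139, and its log2 ratio of -0.66 had the opposite sign to 0.52 for Mir708 and 0.29 for Mir139. These signs were the same when libraries were scaled by total counts, at -0.86, 0.32 and 0.09. Mir383 and Mir326, the members lower in pup 3, were also the least abundant of the 7. Over all genes, the median log2 ratio was -0.08 at a mean of 10 to under 100 CPM (96 genes). It was -0.12 at 100 to under 1000 CPM (112 genes) and 0.07 at 1000 CPM or more (102 genes). Mir488, in the same range of level as Mir383 and Mir326, had -0.03. The part of level in the members' ratios was not tested.

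Other microRNAs carry seeds of these hairpins. The seed AGGAGCU of miR-708-5p is also that of miR-28a-5p, whose hairpin Mir28a lies in an intron of Lpp, a protein of cell adhesion sites. The seed CUCUGGG of miR-326-3p is also that of miR-330-5p, whose hairpin Mir330 overlaps an exon of Eml2, a microtubule-associated protein.
miR-708-5p: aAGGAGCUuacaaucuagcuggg
miR-28a-5p: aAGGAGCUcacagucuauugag
miR-326-3p: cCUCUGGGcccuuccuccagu
miR-330-5p: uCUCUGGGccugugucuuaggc
The capitals mark the common seed, and the strands differ in the bases after it.

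In the first pair the member was the more abundant hairpin and in the second pair the lesser one. Mir28a had 1045 CPM in pup 3 and 539 CPM in pup 1, and Mir708 exceeded it 8.22-fold in pup 3 and 12.8-fold in pup 1. Mir708 made up 89.2% (95% Wilson interval 88.9 to 89.4) of the counts of the pair in pup 3 and 92.7% (92.5 to 92.9) in pup 1. Mir330 had 647 CPM in pup 3 and 651 CPM in pup 1. Mir326 made up 11.6% (10.8 to 12.5) of its pair in pup 3 and 19.2% (18.3 to 20.1) in pup 1. Since arms are pooled, these are shares of hairpin counts and not of the strands with the seed.

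The partners differed between pups too. Mir28a was higher in pup 3 with a log2 ratio of 1.15 (1.10 to 1.21). Gm23134 had 117 counts in pup 3 and 67 in pup 1 (log2 ratio 1.23, interval 0.79 to 1.69). Its sequence holds the bases AGGAGCU, but no RefSeq mature strand with that seed was listed for it. Mir708, Mir28a and Gm23134 were all called higher in pup 3, as were 30.2% of all 460 genes. All 3 were also higher when scaled by total counts, at 0.32 for Mir708, 0.95 for Mir28a and 1.03 for Gm23134. Gm23134 stood 564-fold below Mir708 in pup 3 and 929-fold below it in pup 1. Since it shares bases 2 to 23 of miR-708-5p, its reads may not be separate from those of Mir708, which was not tested. Mir326 had a log2 ratio of -0.66, against 0.19 (0.14 to 0.25) for Mir330, which was -0.01 and did not pass when scaled by total counts. The seed of miR-149-3p was found in 3 further microRNAs, miR-7016-5p, miR-1943-5p and miR-6967-5p. Their hairpins held at most 8 counts in pup 3 and 16 in pup 1, of which Mir1943 alone had enough to test and did not pass. No other RefSeq mature strand carried a seed of miR-149-5p, Mir139, Mir153, Mir488 or the remaining strands.

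**Figure D5:**
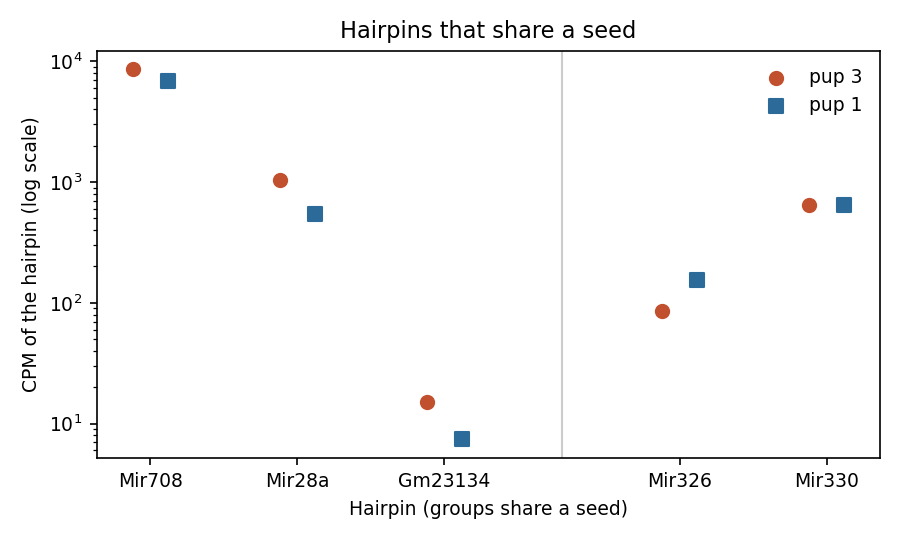
CPM (log scale) of hairpins that share a seed, in pup 3 (circles) and pup 1 (squares), with the group of Mir708 left of the line and that of Mir326 right of it. Gm23134, in the group of Mir708, holds the bases of the seed but has no listed mature strand with it. Mir708 exceeds Mir28a 8.22-fold in pup 3 and 12.8-fold in pup 1, while Mir330 exceeds Mir326.

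A list of other hairpins in genes with known neural roles held 13 symbols, of which 11 were measured and 10 were tested. Its summed level was 6821 CPM in pup 3 and 5432 CPM in pup 1, mostly Mir342 in Evl, an actin regulator of growing axons, with 5356 CPM in pup 3 and 3648 CPM in pup 1. The list was not complete, as it left out Mir1298 and Mir1912, also in introns of Htr2c. Mir1298 had 2204 CPM in pup 3 and 3480 CPM in pup 1 and was called lower at -0.46. Mir1912 did not pass at -0.01. The list named a hairpin of Cacng8 as Mir935, which was not found under that symbol. Gm23450, which overlaps an exon of Cacng8, was not counted in the list and was called lower at -0.50. Whether Gm23450 is the hairpin meant was not tested. The list's median CPM was 123 in pup 3 and 172 in pup 1, below every member except Mir326 in each pup. By the exact binomial test 2 were higher in pup 3 (Mir342 and Mir338) and 5 were lower, while 3 did not pass. The 63.0% called over all 460 genes puts this count near that of the table too. Scaled by total counts 2 were higher, 7 lower and 1 did not pass. The median log2 ratio of the 10 under TMM was -0.32, beside -0.02 over all 460 genes tested.

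The 5 hairpins of the list that were lower in pup 3 lay in Htr2c, Lingo2, Grid1, Chrm2 and Fgf13. Mir448, in the serotonin receptor gene Htr2c, had 207 CPM in pup 3 and 371 CPM in pup 1 (log2 ratio -0.64, interval -0.73 to -0.56). Mir873a, in Lingo2, had 82.3 CPM in pup 3 and 160 CPM in pup 1 (-0.76, -0.89 to -0.62). Mir346 in the glutamate receptor gene Grid1 had a log2 ratio of -0.28, Mir490 in the acetylcholine receptor gene Chrm2 had -0.997 and Mir504 in Fgf13 had -1.13.

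Mir764 and Mir1264, both in Htr2c, had log2 ratios of -0.35 (-0.77 to 0.05) and -0.06 (-0.14 to 0.03) and did not pass, though both passed as lower when scaled by total counts, at -0.55 and -0.26. Mir592, which overlaps an exon of the glutamate receptor gene Grm8, had 204 CPM in pup 3 and 218 CPM in pup 1 (0.10, 0.01 to 0.20, and -0.10 when scaled by total counts) and did not pass after adjustment. Mir338 in Aatk had 580 CPM in pup 3 and 516 CPM in pup 1 (0.37, 0.31 to 0.43). Mir876 in Lingo2 had 0 counts in pup 3 and 1 in pup 1, too few to test.

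Markers of neurons and of other cells were read in the same libraries. Of all 460 genes, 63.0% were called under TMM, 30.2% higher in pup 3 and 32.8% lower. When scaled by total counts, 98 of the 460 were higher and 206 lower. A call alone therefore sets no marker apart from the table. Neuronal Mir137 had 33595 CPM in pup 3 and 24345 CPM in pup 1. Of 6 listed neuronal markers 4 were called higher in pup 3 and 2 were not called (4 higher and 1 lower when scaled by total counts). That list was not complete. Among neural hairpins left out, Mir129-2 (log2 ratio -0.91), Mir129-1 (-0.64), Mir7-2 (-0.46) and Mir132 (-0.18) were called lower under TMM. Mir138-1 (1.07), Mir138-2 (0.997), Mir9-3 (1.04), Mir7-1 (0.44) and Mir7b (0.39) were called higher, and Mir218-1, Mir218-2 and Mir212 did not pass. The neuronal markers Mir124a-1, Mir124a-2 and Mir124a-3 had means of at most 9.85 CPM, and each shares a stretch with other hairpins. Mir128-1 and Mir128-2 also each share a stretch with 1 other hairpin, while Mir137 shares none. All 5 epithelial markers were higher in pup 3, with a summed level of 10499 CPM against 3685 CPM in pup 1. Of 4 choroid plexus and multiciliated markers 2 were lower in pup 3 and 2 did not pass, with 8543 CPM summed in pup 3 and 11574 CPM in pup 1. All 3 measured leukocyte markers were higher under TMM and 2 of them when scaled by total counts, with 703 CPM summed in pup 3 and 575 CPM in pup 1.

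Endothelial Mir126a had 36865 CPM in pup 3 and 40491 CPM in pup 1, with a log2 ratio that was called higher under TMM, at 0.06, and lower when scaled by total counts, at -0.14. It was the only endothelial marker listed. Mir221 and Mir222, which were left out, were called higher under TMM at 0.44 and 0.41. The 2 mural markers summed to 5175 CPM in pup 3 and 5826 CPM in pup 1. Of these Mir143 was called higher under TMM at 0.03 and Mir145a did not pass at 0.04, while both were called lower when scaled by total counts, at -0.17 and -0.16. Left out of the mural list, Mir199b, which shares a stretch with other hairpins, was called higher under TMM at 0.79. Mir214 and Mir199a-2, also left out, did not pass.

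The erythroid markers went opposite ways, with Mir451a higher in pup 3 (log2 ratio 1.07) and Mir144 lower (-0.67), and summed to 370 CPM in pup 3 and 228 CPM in pup 1. Of 3 oligodendrocyte markers, Mir338, which is also in the list of neural host genes, was higher and 2 were lower, Mir219a-1 at -0.21 and Mir219a-2 at -0.66. They summed to 676 CPM in pup 3 and 652 CPM in pup 1. Of 5 Hox markers of tissue behind the forebrain 4 were tested: Mir10a (-0.62) and Mir196b (-0.96) were lower, Mir196a-2 did not pass, and Mir10b was called higher at 0.17 but did not pass at -0.03 when scaled by total counts. The Hox markers summed to 147 CPM in pup 3 and 192 CPM in pup 1, with Mir196a-1 at 0 in both. The part of cell makeup in the members' ratios was not tested.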

How the data were processed

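The deposited values are raw read counts for each microRNA gene. The authors used assembly mm10 and annotation M4, per the file headers and accompanying notes, and the sources used here name neither aligner nor counter. In every gene the first of 3 count columns equalled the sum of the others, read as sense and opposite strand, and was used here. Tallies that name no gene were left out of library sizes. In pup 3 they were 43.5% (mapping to several places), 14.4% (unmapped) and 1.26% (in no gene), and in pup 1 43.0%, 14.9% and 1.85%.

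Names, positions and hosts came from GENCODE M21 by gene identifier (1894 of 1973 matched), and mature sequences from RefSeq (6 of 7 members). Ratios used counts with 0.5 added and TMM factors of edgeR 4.0.16 (0.933 for pup 3, 1.07 for pup 1). As 1 group has no contrast, no edgeR test was run. Genes whose counts summed to at least 20 were compared by a two-sided exact conditional binomial test, Benjamini-Hochberg adjusted at 0.05. It was checked on simulated counts that held counting error and no spread between pups. That check cannot show its error rate in these libraries, where the biological coefficient of variation was 0.304. Each pup gave 1 library, so these p-values measure counting error only. Alternatives were DESeq2 1.42.0 size factors, total counts, sense reads, other count minimums and other library totals. Hairpin length and the reads of Gm23134 were tried after seeing the data.

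Named by rule were the 7 members, hairpins with the same seed, a list in neural host genes, markers, and the hairpin closest in level to each member. Gm23134 was named after its values were seen. Members and lists were chosen with earlier results of these data known. Tools were R 4.3.3, Python 3.11.15 and scipy 1.17.1.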

Additional observations from a re-analysis of the deposited data

Results flagged for a closer look

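Reads on the strand opposite to a member were found for Mir708, with 11 reads in pup 3 and 6 in pup 1, both above the 3 counts that a count of 0 allows. They were 0.0167% of its reads in pup 3 and 0.00964% in pup 1, against 1.91% and 2.69% over all assigned reads. The other 6 members had no read on the opposite strand. With 2 pups, no test for a pup that stands apart can be made.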

How the results depend on the processing

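The share of reads taken by the 7 hairpins was 3.16% of assigned reads. It was 1.28% of all reads, 3.999% of assigned reads without Mir99a, the most abundant gene, and 3.24% of sense reads. The values without 1 pup ranged from 3.15% to 3.18%. Scaled by total counts, the members called lower in pup 3 were 5, against 2 under TMM, their median log2 ratio was -0.22, and Mir149 reversed to -0.15; that scaling shifts every ratio by the same amount. Of all called genes 47.9% were higher in pup 3 under TMM and 32.2% under total counts. On sense reads Mir153 passed as lower at -0.04. DESeq2 size factors and the other count minimums changed no member's call or direction. Dividing by hairpin length, added after the data were seen, left 4 of 6 neighbouring pairs in their order. No paired analysis was possible because the samples form a single group. Depth limits Mir326 most, with 654 and 1395 counts in pup 3 and pup 1.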
